A study of Drosophila melanogaster with 8 samples.

Results

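The sex-by-population interaction asks whether the difference between males and females in the Malpighian tubules of Drosophila melanogaster has the same size in an African and a European population. It is the difference of 2 differences on a log2 scale, European males minus European females less African males minus African females. A positive value means that the male excess was larger in Europe, and a negative value that it was larger in Africa. All 8 libraries of the series entered the comparison, 2 for each of African females, African males, European females and European males. Of the 13942 genes listed, 12580 had at least 12 reads over the 8 libraries and were tested. African flies came from Zimbabwe and European flies from the Netherlands. Each library was a pool of tubules dissected from adults of several isofemale lines, which each descend from a single wild-caught female. Flies of all 4 groups were untreated, kept on cornmeal-molasses food at 22 °C with 14 h of light and 10 h of dark. The sample labels give an age of 2 to 4 days, from which the methods of the study differ.

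Malpighian tubules are the kidney-like organs of insects. They make the primary urine and take up toxins and metabolic waste from the hemolymph. Principal cells drive the transport with a proton pump, the V-ATPase, while stellate cells pass chloride and water. The tubules are also a site of detoxification and immunity, with cytochrome P450 enzymes, transferases and antimicrobial peptides. An interaction can take several shapes. A gene may be high or low in a single group, the sexes may differ in both populations but by unequal amounts, or the sex difference may point in opposite directions.

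The libraries held 19528634 to 27099855 reads on genes of the transcriptome. Values are RPKM, reads scaled to transcript length and to the mapped reads of the library, and tests were run on log2(RPKM + 0.1) after scaling for library composition. Markers of the tubule were high in every library. The geometric mean level of 12 principal cell genes was 93.4 to 118 RPKM and that of 8 stellate cell genes 24.6 to 34.3 RPKM. RNA of other organs was also present at unequal amounts. A list of 45 midgut digestive enzymes had a level of 29.8 and 10 RPKM in the African male libraries and 1.65 to 3.64 RPKM in the other 6. A list of 34 testis genes had 1.4 and 0.606 RPKM in African males, 2.2 and 2.58 RPKM in European males and 0.146 to 0.172 RPKM in females. The first European female library stood apart for 33 accessory gland and ejaculatory duct genes, at 0.663 RPKM against 0.148 to 0.163 RPKM in the other female libraries. The first African female library stood apart for 26 antimicrobial peptide genes, at 11 RPKM against 2.04 to 4.64 RPKM in the other 7. The splicing regulator gene Sxl, which sets the sex, had 28.6 to 33.2 RPKM in the female libraries and 13.3 to 14.9 RPKM in the male ones, as their labels require.

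At a false discovery rate of 5%, 7 genes had an interaction of sex and population. The male excess was larger in Europe for 2 of them, sel and CG15742 (0.0159% of the genes tested), and larger in Africa for 5, Cyp303a1, pnr, Amy-d, Amy-p and CG18180 (0.0397%). They stood in 3 shapes. Cyp303a1, pnr and both amylase genes were high in African males alone, CG18180 was low in African females alone, and sel and CG15742 were higher in Europe in both sexes and most of all in European males. With the replicate number as a block, the count with a larger male excess in Europe fell to 0, because the adjusted p of sel became 0.0553 and that of CG15742 became 0.0523 (limma). The count with a larger male excess in Africa became 7 under the block, as CG10472 (adjusted p = 0.00251) and CG8834 (0.0231) joined the 5 genes. Both were high in African males, with 608 and 220 RPKM against 2.05 to 13.1 RPKM for CG10472, and their adjusted p without the block were 0.376 and 0.247. CG8834 is named after its values were seen. At an unadjusted p under 0.05 the male excess was larger in Europe for 529 genes (4.21%) and in Africa for 427 (3.39%). With 2 libraries per group the interaction had a median standard error of 0.257 on the log2 scale. It was 0.222 for genes with a mean of 1 to 10 RPKM and 0.118 for those of 10 to 100 RPKM, so that a small interaction of a weakly expressed gene was not detectable at this depth. Both replicates of a group were biological, each a separate pool of tubules from the isofemale lines of that population. The p-values rest on the spread between such pools, taken over all 4 groups. They do not measure the spread between lines within a population.

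The sexes otherwise differed in much the same direction in both populations. The male level was the higher for 295 genes in Africa (2.34%) and for 603 in Europe (4.79%). The female level was the higher for 140 genes in Africa (1.11%) and for 157 in Europe (1.25%). Of the 435 sex-biased genes in Africa 50.1% were also called in Europe, and of the 760 in Europe 28.7% were also called in Africa. These 218 shared genes all had the same direction. Of the 760 genes called in Europe, 719 had the same sign in Africa (94.6%). Even among 1219 genes with an unadjusted p under 0.05 for sex in both populations, 24 had opposite signs. Without the composition scaling the African split was 275 male-biased to 211 female-biased genes. Leaving out a library moved the African count to between 72 and 588 and the European count to between 15, without the second European male library, and 969, without the first African male library.

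**Figure D1:**
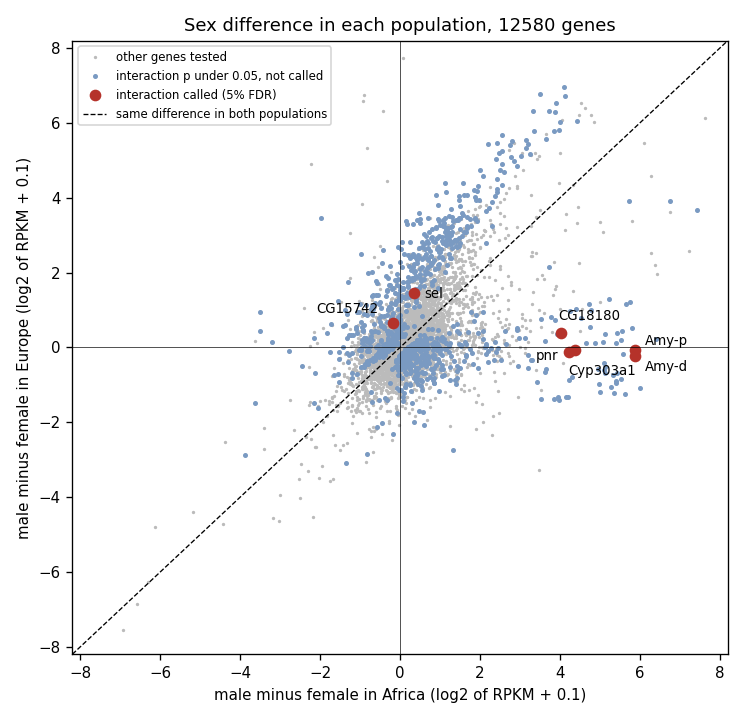
Male minus female difference in Africa (horizontal axis) and in Europe (vertical axis), both on the log2(RPKM + 0.1) scale, for the 12580 genes tested. Genes on the diagonal have the same sex difference in both populations, and the 7 genes with a called interaction are marked and named, with Amy-d, Amy-p, Cyp303a1, pnr and CG18180 far to the right of it and sel and CG15742 above it.

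Between populations the picture was similar. Among females 299 genes were higher in Europe (2.38%) and 188 in Africa (1.49%), and among males 368 were higher in Europe (2.93%) and 286 in Africa (2.27%). Without the composition scaling the splits were 430 to 164 in females and 668 to 238 in males. A total of 315 genes were called in both sexes, 64.7% of those called in females and 48.2% of those called in males, and all had the same direction. Leaving out a library moved the female count from 487 to between 106, without the second European female library, and 602, without the first African male library. The male count of 654 moved to between 182, without the second European male library, and 804, without the first African male library.

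Cyp303a1 had the smallest p-value of the interaction. It is a cytochrome P450 known from the development of sensory bristles, and it lies on 2L (FBgn0001992). Its RPKM were 25.2 and 29.2 in the African male libraries. In all other libraries they were 1.17 to 1.43, where African females, European females and European males overlapped. The gap from African males to the next group mean was 20.6-fold on the scale of RPKM + 0.1, on which all gaps are given. The interaction was −4.43 ± 0.23 (SE) on the log2 scale (adjusted p = 0.00792, limma). Males exceeded females by 4.37 in Africa (adjusted p = 0.00026), whereas the difference was −0.06 in Europe (adjusted p = 0.89). The adjusted p stayed under 0.05 in 13 of 17 alternative settings. It rose to 0.106 without the second African female library, to 0.0758 and 0.0555 without the first or the second European female library, and to 0.098 without the second European male library, where the log2 interaction was between −4.30 and −4.56.

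The GATA transcription factor gene pnr (pannier, 3R, FBgn0003117), which patterns the dorsal side of the embryo and acts in heart formation, had the same shape at a lower level. African males had 4.74 and 4.01 RPKM. The other 6 libraries had 0.128 to 0.236 RPKM, close to the limit of detection. The gap was 14.7-fold, which the added 0.1 RPKM makes smaller than the ratio of the RPKM, and the interaction was −4.34 ± 0.31 (adjusted p = 0.0281). In Africa males exceeded females by 4.23 (adjusted p = 0.0013). With 1 RPKM added in place of 0.1, the interaction of pnr was −2.30 and was still called. Leaving out a library gave an adjusted p of 0.0449 without the second African male library and of 0.0698, without the first African male library, to 0.147, without the first European female library, for the others.

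**Figure D2:**
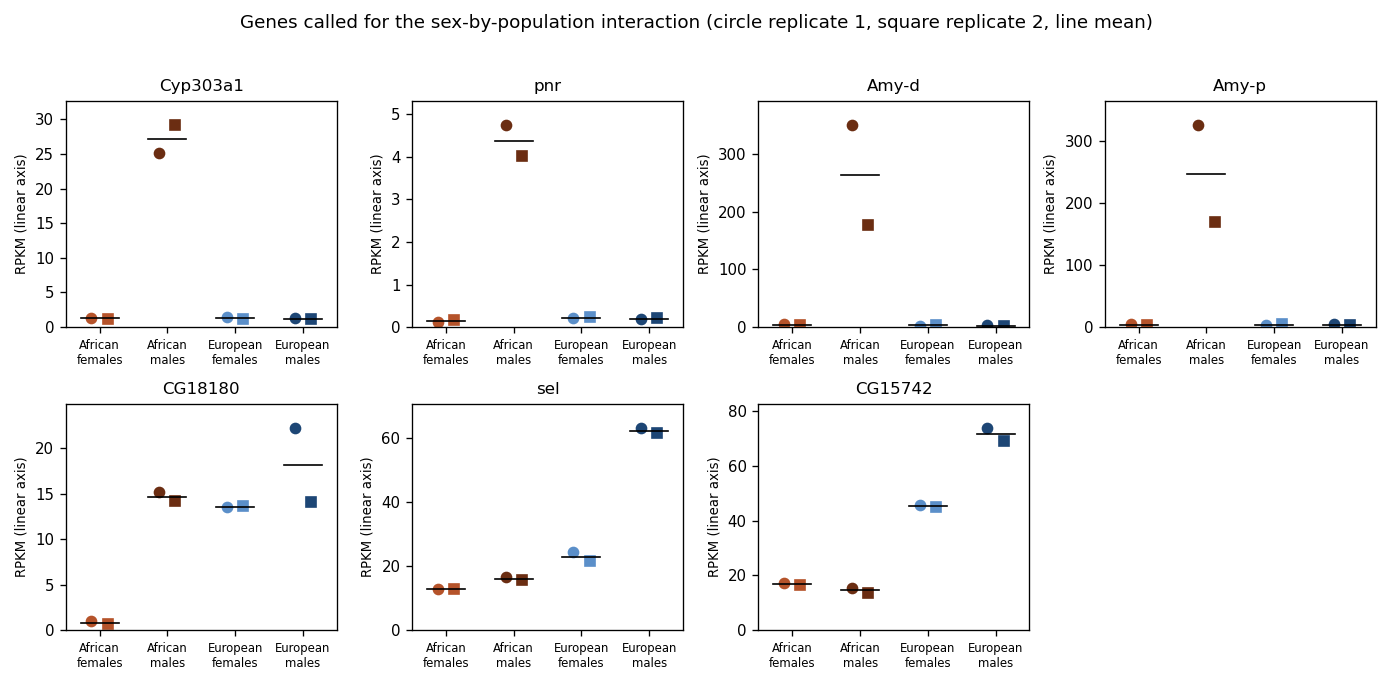
RPKM of the 7 genes with a called interaction in each library, by group (horizontal axis) on linear vertical axes that start at 0, with circles for replicate 1, squares for replicate 2 and lines for means. Cyp303a1, pnr, Amy-d and Amy-p are high in African males alone, CG18180 is low in African females alone, and sel and CG15742 step up from Africa to Europe and again to European males.

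Amy-d and Amy-p (2R, FBgn0000078 and FBgn0000079) encode amylases, the secreted enzymes that digest starch in the gut. They are near-identical neighbouring copies and can share reads, so that their values are not separate observations. Amy-d had 350 and 177 RPKM in African males and 2.06 to 4.89 RPKM in the other libraries. Amy-p had 325 and 169 RPKM in African males and 2.94 to 5.14 RPKM in the others. The groups did not overlap, and the gaps were 58.9- and 59.2-fold. The interaction was −6.11 ± 0.49 for Amy-d and −5.97 ± 0.50 for Amy-p (both adjusted p = 0.0319). Leaving out a library gave adjusted p of 0.0512, without the first African male library, to 0.159, without the first European female library, for Amy-d, and of 0.0594, without the first European male library, to 0.246, without the first European female library, for Amy-p. The exception was the second African male library, without which they were 0.025 and 0.0302.

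Many other gut enzymes were also highest in African males. The methods of the study say that the stretch of gut joining the tubules was cut away. Of the 45 midgut digestive enzymes, 33 had their highest group mean in African males, against 26.5% of all genes tested, and 13 were set apart high there by the rule given below (1.4% of all genes were). At an unadjusted p under 0.05, 17 of them had a larger male excess in Africa and 0 had a larger one in Europe (3.39% and 4.21% of all genes). The median interaction of the list was −3.13, beside −0.01 for all genes, and 2 members, both amylases, were called. Jon65Ai, a gut serine protease, had 136 and 116 RPKM in African males. It had 1.4 to 4.93 RPKM elsewhere, and its interaction of −6.31 had an adjusted p of 0.054. Its relative Jon44E had 27.3 and 72.5 RPKM in African males against 0.492 to 1.31 RPKM, and Jon99Ci had 27.9 and 27.9 RPKM against 0.521 to 2.08 RPKM. The trypsin-like CG10477, with 249 and 35.9 RPKM against 0.631 to 1.71 RPKM, differed most between the African male libraries among the genes named here. Across the 13 enzymes set apart in African males, the ratio of the first to the second African male library ran from 0.377 to 6.93 with a median of 1.13. The rule that picked these 13 favours genes whose 2 African male libraries agree. Over all 45 enzymes the level was 29.8 RPKM in the first African male library and 10 RPKM in the second. The ratio of the first to the second library was 1.98 for Amy-d, 0.864 for Cyp303a1 and 1.18 for pnr. Whether gut RNA has a part in the values of Cyp303a1 and pnr was not tested. In bulk tissue, more cells of a type and more RNA per cell cannot be told apart. Without the second African male library 21 enzymes were set apart in place of 13, and with the replicate block 18.

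Genes for immune recognition and signaling, 35 in all, had 4 members set apart high in African males, against 1.4% of all genes, and 1 set apart low, against 0.556%. Of the 4, 3 were PGRP-SC genes, which encode amidases that cleave bacterial peptidoglycan. PGRP-SC1a had 80.2 and 121 RPKM in African males and 0.292 to 3.39 RPKM elsewhere, a gap of 35.1-fold (interaction −5.82, adjusted p = 0.0813). PGRP-SC2 had 72 and 31.2 RPKM against 0.9 to 3.02 RPKM, and PGRP-SC1b had 1.14 and 4.75 RPKM against 0 to 0.155 RPKM. These copies are alike in sequence and may share reads. The midgut list was also highest in the African male libraries, at 29.8 and 10 RPKM. Whether gut RNA has a part in the values of the PGRP-SC genes was not tested. The fourth was dl, which encodes the NF-kappaB factor Dorsal of the Toll pathway. It had 15.2 and 15.6 RPKM against 9.41 to 12.3 RPKM. The member set apart low was PGRP-SA, a receptor of the Toll pathway, with 11.3 and 7.78 RPKM in African males against 17.7 to 29.1 RPKM. Of 26 antimicrobial peptide genes, 0 were set apart high in African males. Ag5r2, a secreted antigen 5-related protein, had the largest gap of all genes in the series, 85.0-fold. It had 70.7 and 56.2 RPKM in African males and 0.202 to 0.902 RPKM in the other 6 libraries (interaction −6.19, adjusted p = 0.0928). With 1 RPKM added before the log2 scale, Jon65Ai (adjusted p = 0.0311), PGRP-SC1a (0.0251) and Ag5r2 (0.00971) passed the interaction test as well.

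Some genes for detoxification and metal handling stood apart in African males, in both directions. Set apart high were 3 of 76 cytochrome P450 genes, 1 of 35 glutathione S-transferases, 2 of 35 UDP-glycosyltransferases and 1 of 13 genes for metal handling. Set apart low were 1, 0, 2 and 1 members of these lists. Over all genes 1.4% were high in African males and 0.556% low. Of the high members, GstT1 and Ugt302C1 were not set apart without the composition scaling. Of the high ones, the metallothionein gene MtnC, whose product binds metal ions, had 481 and 334 RPKM in African males and 56.2 to 149 RPKM in the others. Cyp28a5 had 102 and 57 RPKM against 13 to 33.2 RPKM, and Cyp12a5 had 89.2 and 85.5 RPKM against 55.7 to 69.1 RPKM. The UDP-glycosyltransferase gene Ugt35E1 had 63.3 and 51.6 RPKM against 3.45 to 20.1 RPKM. The gaps of these 4 genes were 3.5-, 3.5-, 1.4- and 4.6-fold. The low members were Cyp6a13, with 26.3 and 26.3 RPKM against 31.4 to 37.2 RPKM, Ugt302E1, with 3.77 and 2.2 RPKM against 6.46 to 13.3 RPKM, Ugt303B2, with 2.01 and 1.33 RPKM against 2.4 to 4.14 RPKM, and the copper transporter gene Ctr1B, with 62.5 and 63.3 RPKM against 74 to 101 RPKM. Among 76 cytochrome P450 genes the interaction had an unadjusted p under 0.05 in 4 with a larger male excess in Europe and 6 with a larger one in Africa, and the median was −0.09. Among 35 glutathione S-transferases the counts were 0 and 2, and among 35 UDP-glycosyltransferases 1 and 1. Over all genes the shares were 4.21% and 3.39%. In African females 1, 0, 2 and 0 members of the 4 lists were set apart high, in the order above, against 0.517% of all genes. Set apart low there were 3, 1, 1 and 2 members, against 0.795% of all genes.

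CG18180 (3L, FBgn0036024), a gene of the serine protease family, had the opposite form: it was low in 1 group. African females had 1.02 and 0.665 RPKM. The other 6 libraries had 13.5 to 22.2 RPKM, and among these African and European males overlapped, with European females just below them. The gap was 14.1-fold and the interaction −3.65 ± 0.34 (adjusted p = 0.0422). Females were lower than males by 4.04 in Africa (adjusted p = 0.0015) and lower in Africa than in Europe by 3.82 (adjusted p = 0.0017). The call was lost when any 1 library was left out, with adjusted p of 0.0559, without the first European male library, to 0.338, without the first European female library.

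The gene sel (seele, 2R, FBgn0263260) encodes a saposin-like protein of the endoplasmic reticulum known from the dorsoventral pathway of the embryo. Its values rose in steps. African females had 12.9 and 13 RPKM, African males 16.5 and 15.7 RPKM, European females 24.3 and 21.7 RPKM, and European males 63 and 61.6 RPKM. No groups overlapped. The sex difference was 0.36 in Africa (adjusted p = 0.04) and 1.44 in Europe (adjusted p = 0.001), and the population difference was 0.75 in females (adjusted p = 0.0039) and 1.84 in males (adjusted p = 0.00016). The interaction was 1.09 ± 0.09 (adjusted p = 0.0319), with 0.0553 under the replicate block. The gene was set apart in European males with a gap of 2.7-fold. Leaving out any 1 library moved the adjusted p above 0.05, to 0.0537 without the second African male library and to 0.221 without the first European male library, while the log2 interaction stayed between 1.01 and 1.16.

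CG15742 (X, FBgn0030462), a gene without a known function, had 17.3 and 16.5 RPKM in African females and 15.4 and 13.7 RPKM in African males. European females had 45.7 and 45 RPKM and European males 73.6 and 69.2 RPKM. The sexes therefore differed in Europe, by 0.66 (adjusted p = 0.0056), and not detectably in Africa, where the difference was −0.18 (adjusted p = 0.14). The interaction was 0.84 ± 0.08 (adjusted p = 0.0421), and 0.0523 under the replicate block. Without any 1 library the adjusted p was 0.0569, without the second African male library, to 0.338, without the first European female library.

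Some genes below the threshold had a like pattern. A total of 186 genes were higher in Europe in both sexes. Among them the European excess was larger in males for 35 and in females for 8, at an unadjusted p under 0.05 of the interaction. The 35 include sel and CG15742, and also CG32695, Cyp310a1 and Tsp39D, whose means were higher in European females than in European males. Among the 129 genes higher in Africa in both sexes the counts were 11 and 2. Over all genes the interaction was positive at this p in 4.21% and negative in 3.39%. Both sets were picked by the population differences in females and in males, and the interaction is the difference of those 2. The counts are therefore no separate evidence of a pattern. CG4949 (X) had 30.9 and 27.7 RPKM in African females, 27.1 and 25.9 RPKM in African males, 83.4 and 86 RPKM in European females and 131 and 135 RPKM in European males (interaction 0.76, adjusted p = 0.0813). The gene da, for the helix-loop-helix transcription factor Daughterless, had 27.3 and 27.4 RPKM, 25.2 and 23.9 RPKM, 44.3 and 45.5 RPKM, and 63.7 and 61.1 RPKM in the same order (interaction 0.60, adjusted p = 0.0813). In both, African males lay slightly below African females and European males clearly above European females.

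A few of these genes encode channels, receptors and regulators, and they are named here after their values were seen. The gene alka, for a chloride channel opened by alkaline pH, had 4.22 and 4.22 RPKM in African females, 3.35 and 3.61 RPKM in African males, 10.6 and 11.4 RPKM in European females and 18.8 and 17.9 RPKM in European males. Its interaction was 0.97 (adjusted p = 0.163). The forkhead factor gene fd3F, on X, had group means of 15.5, 13.8, 44.1 and 68.2 RPKM in that order (adjusted p = 0.247). The group means were 4.81, 4.35, 11.4 and 19 RPKM for Ir68a, known as a moisture receptor, and 4.61, 3.86, 10.4 and 16.2 RPKM for Nlg1, a neuroligin of synapses. Marker genes of neurons as a list were low and even, at 0.626 to 0.791 RPKM in the 8 libraries.

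A gene can stand apart in a single group without passing the interaction test, which weighs all 4 groups equally. Genes were therefore called set apart when a group differed from the mean of the other 3 at a false discovery rate of 5%, when both of its libraries lay outside the other 6, and when its gap to the nearest group mean exceeded the range of the other 3 means. By this rule 65 genes were high (0.517%) and 100 low (0.795%) in African females, 176 high (1.4%) and 70 low (0.556%) in African males, 65 high (0.517%) and 58 low (0.461%) in European females, and 302 high (2.4%) and 63 low (0.501%) in European males. In African males 54 of the 176 high genes had a gap of at least 4-fold and 31 a gap of at least 16-fold. In European males 35 of 302 reached 4-fold and 0 reached 16-fold, and 233 of the 302 had African males as the next highest group. Without the composition scaling the split was 137 high and 201 low in African males and 109 high and 54 low in European females, and with median-of-ratios factors it was 50 high and 69 low in European females. Of genes with a gap of at least 1.5-fold, 99 of 109 high in African males and 267 of 270 high in European males were also set apart without the composition scaling. The total in European males fell from 365 to 19 without the second European male library and to 79 without the first, and was 604 without the first African male library. Across all libraries left out in turn the totals ran from 22 to 217 in African females, 129 to 270 in African males and 9 to 124 in European females, lowest without the first African female library, without the second European female or first European male library, and without the first European female library.

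**Figure D3:**
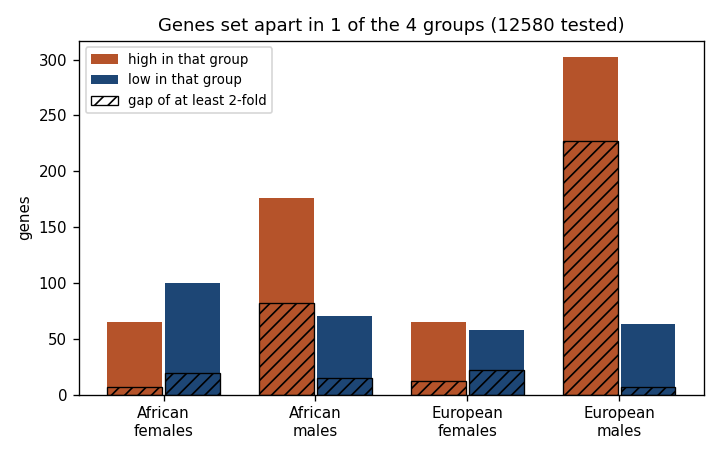
Number of genes set apart as high or low in each of the 4 groups (bars, from 0), out of 12580 genes tested, with hatching for the part of each bar whose gap to the nearest other group was at least 2-fold. High genes outnumber low genes in both male groups, 176 against 70 in African males and 302 against 63 in European males with the main scaling, whereas low genes outnumber high ones in African males without the composition scaling.

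Genes for protein folding in the endoplasmic reticulum were among those high in European males. Of 14 genes on this list, 11 had their highest group mean in European males, as did 25.9% of all genes, and 5 were set apart high there, as were 2.4% of all genes. The gene for CaBP1, a protein related to protein disulfide isomerases, had 28.3 and 35 RPKM in African females, 43 and 35.5 RPKM in African males, 44.5 and 45.9 RPKM in European females and 103 and 87.2 RPKM in European males. The gap was 2.1-fold, while the interaction of 0.72 was not called (adjusted p = 0.416). The gene for Gp93, the Hsp90 of this compartment, had 67.2 and 63.6 RPKM in European males against 28.3 to 42.2 RPKM. P58IPK, a cochaperone, had 47.4 and 49.7 RPKM against 27 to 35.4 RPKM. The lectin chaperone gene Calr had 559 and 541 RPKM against 351 to 467 RPKM, a gap of 1.2-fold, and the oxidase gene Ero1L had 13.1 and 12.8 RPKM against 9.51 to 11 RPKM, a gap of 1.1-fold. Hsc70-3, the BiP of the fly, was not set apart although its values of 247 and 238 RPKM in European males lay above the 111 to 167 RPKM of the other libraries. Sil1, which exchanges the nucleotide of BiP, was not on the list and is named after its values were seen. It had 12.5 and 8.59 RPKM in European males and 2.93 to 3.71 RPKM elsewhere, a gap of 2.7-fold.

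The level of the folding list was 74.4 and 71 RPKM in European males and 49.1 to 52.5 RPKM in the other 6 libraries. This level is a geometric mean, in which the weakly expressed wbl, at 0.0388 to 2.26 RPKM, counts as much as any other member. The summed RPKM of the list rose by less, with 2290 and 2222 in European males and 1565 to 1929 in the other 6 libraries. At a false discovery rate of 5%, 3 members were called higher in males in Africa (2.34% of all genes) and 5 in Europe (4.79%). Members called higher in Europe numbered 2 in females (2.38% of all genes) and 5 in males (2.93%). The median interaction was 0.05, close to the −0.01 of all genes. At an unadjusted p under 0.05 the male excess was larger in Europe for 3 members and in Africa for 0 (4.21% and 3.39% of all genes). The member with the largest interaction was wbl (windbeutel), which like sel is known from the dorsoventral pathway and encodes a protein of the endoplasmic reticulum. It had 1.28 and 0.426 RPKM in African females, 0.0998 and 0.125 RPKM in African males, 0.0388 and 0.112 RPKM in European females and 2.26 and 1.43 RPKM in European males. The sign of the sex difference was thus opposite in the populations, and the interaction was 5.44 ± 0.70 (adjusted p = 0.155). Without a library in turn, the 5 members set apart became 3 to 5, with 3 when the second African female library or any European library was left out.

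Most genes that were high in European males were weakly expressed. Of the 302, 166 had under 100 reads over the 8 libraries, 55.0% against 22.2% of all genes, and several are known from sperm. The 34 testis genes tested had their highest mean in European males in 28 cases, against 25.9% of all genes. Members called higher in males numbered 11 in Africa (2.34% of all genes) and 23 in Europe (4.79%), and 2 were called higher in Europe among males (2.93%). The list's median interaction was 1.53, with 12 members larger in Europe and 0 in Africa at an unadjusted p under 0.05 (4.21% and 3.39% of all genes). Mst84Dd, a sperm protein gene, was at 0 in all 4 female libraries. It had 1.9 and 0.895 RPKM in African males and 6.58 and 9.63 RPKM in European males (interaction 2.42, adjusted p = 0.293). The gene loopin-1, for a leucyl aminopeptidase of the sperm tail, had 0.0493 to 0.0901 RPKM in females, 4.22 and 1.17 RPKM in African males and 9.35 and 16 RPKM in European males. The sperm tail gene dj had 0.122 to 0.217 RPKM, 1.96 and 0.614 RPKM, and 5.18 and 6.79 RPKM in the same order. Both male libraries of each population held reads of these genes, and the African male libraries differed from each other by more than the European ones. The count of 12 was 21 without the first African male library and 3 without the second European male library. Voom, limma's method for read counts, also gave 3.

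Of the 5 genes with the largest gaps in European males, 4 are known by a CG number only. The other was Cdlc2, for a light chain of the dynein motor, with 2.13 and 3.12 RPKM against 0 to 0.52 RPKM, a gap of 6.0-fold. Of the 34 genes of the testis list djl, janB and S-Lap3 were set apart high in European males, as were 2.4% of all genes. The lactate dehydrogenase gene Ldh was set apart at a higher level, with 36.6 and 17.1 RPKM in European males and 3.29 to 9.04 RPKM elsewhere, a gap of 3.1-fold. Whether RNA of the testis, which moved with these genes, has a part in their values was not tested.

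**Figure D4:**
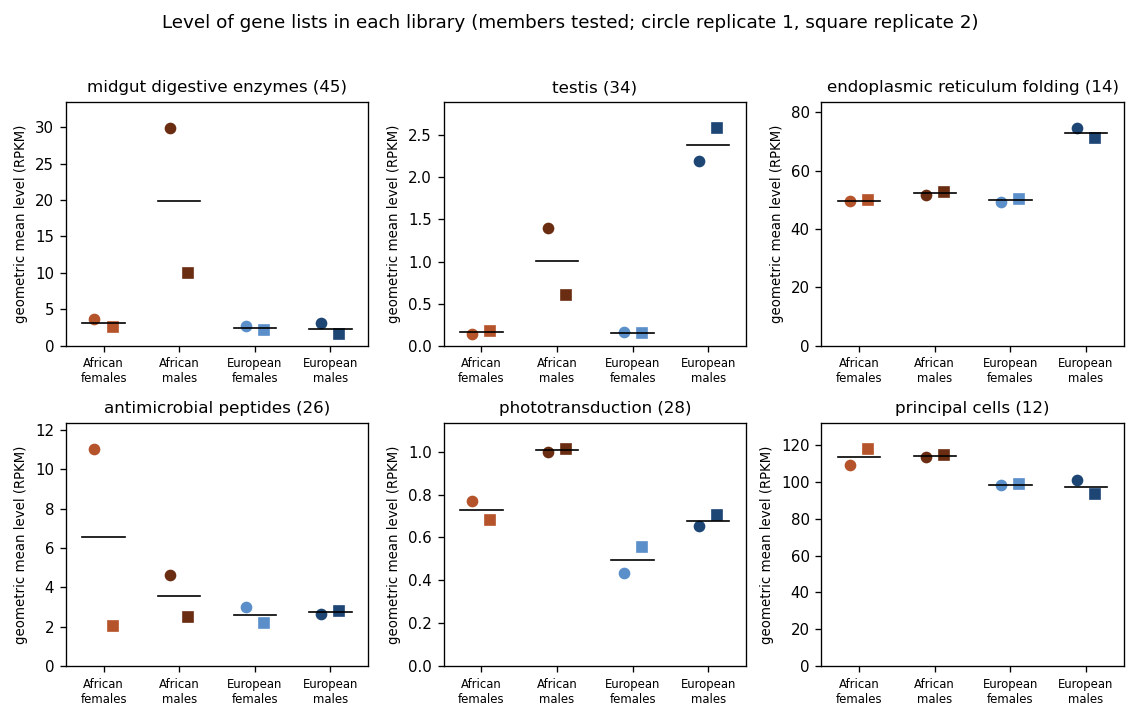
Geometric mean level of 6 gene lists in each library (RPKM, vertical axis from 0) by group, with circles for replicate 1, squares for replicate 2 and lines for means. The midgut list is high in African males (29.8 and 10 RPKM), the testis list is high in males and highest in European males (2.2 and 2.58 RPKM), and the endoplasmic reticulum folding list is high in European males (74.4 and 71 RPKM).

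Gaps were small among the genes low in European males. Of 63, 7 had a gap of at least 2-fold. The 5 with the largest gaps were CG13038, at 0 in both European male libraries, and Ndg, Mcm10, Nepl14 and Rcd-1r. Ndg, for the basement membrane protein nidogen, had 0.206 and 0.134 RPKM in European males and 0.414 to 1.18 RPKM elsewhere. Jabba, for a protein of lipid droplets, is named after its values were seen. It had 4.31 and 3.85 RPKM in European males against 7.53 to 11.4 RPKM, a gap of 2.1-fold (interaction −0.96, adjusted p = 0.155). Of the V-ATPase subunits, Vha16-1, VhaM9.7-b and VhaSFD were set apart low with the main scaling, but none was with median-of-ratios factors.

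The 70 genes low in African males included transporters and a few genes of cell division. CG6293 (3R), of the family of ascorbate and nucleobase transporters, had 2.5 and 1.44 RPKM in African males. It had 24.6 and 25.8 RPKM in African females, 50.1 and 50.2 RPKM in European females and 19.2 and 16.5 RPKM in European males. Males lay below females by a log2 difference of −3.62 in Africa (adjusted p = 0.0015) and −1.48 in Europe (adjusted p = 0.013), and the interaction of 2.14 was not called (adjusted p = 0.155). The gap was 8.3-fold. CG4783 had 57.6 and 49.9 RPKM in African males and 126 to 283 RPKM elsewhere, a gap of 2.7-fold. CG14606, a predicted transporter named after its values were seen, had 106 and 120 RPKM against 261 to 341 RPKM, a gap of 2.3-fold (adjusted p = 0.163 for the interaction). PCNA, the sliding clamp of DNA replication, had 0.902 and 0.54 RPKM against 1.37 to 2.86 RPKM, and mad2, of the spindle checkpoint, had a group mean of 0.576 RPKM against 1.49 to 1.85 RPKM. Among 31 cell division genes these were the 2 set apart low in African males, against 0.556% of all genes. In the interaction test 1 of the 31 had an unadjusted p under 0.05, against 7.6% of all genes.

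African females had 100 low genes, of which 34 lay on chromosome arm 3R (34.0%, against 24.5% of all genes). CG33459, of the serine protease family, had 0.224 and 0.246 RPKM in African females and 2.58 to 11.9 RPKM elsewhere. The gap was 15.5-fold, the largest in this direction. Oat, Irbp and SPR had smaller gaps and are named after their values were seen. Oat, ornithine aminotransferase, had 5.65 and 5.72 RPKM in African females and 9.79 to 11.4 RPKM in the other libraries, which overlapped (gap 1.8-fold, interaction −0.97, adjusted p = 0.155). Irbp, the Ku subunit of DNA break repair, had 9.55 and 8.96 RPKM against 19 to 29.7 RPKM (gap 2.2-fold), and SPR, the receptor for the sex peptide of the ejaculate, had 7.14 and 7.58 RPKM against 11.4 to 17.1 RPKM. The serotonin receptor gene 5-HT2B had 0.109 and 0.122 RPKM against 0.314 to 1.33 RPKM. It was the only gene of the conflicting-bias list below that was set apart low in African females.

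Genes high in African females included Desat2, whose desaturase makes precursors of female cuticular hydrocarbons. Its RPKM were 3.43 and 2.04 in African females. They were 0.129 to 0.317 in the other 6 libraries, a gap of 7.8-fold (interaction 3.93, adjusted p = 0.0813). Ugt50B3 had 13.7 and 8.08 RPKM in African females and 1.27 to 4.85 RPKM elsewhere, a gap of 2.7-fold. The neuropeptide-like gene Nplp4 had 2.94 and 3.24 RPKM against 0.34 to 1.79 RPKM. Of the 65 high genes, 22 were on the X chromosome (33.8%, against 15.8% of all genes), and 7 had a gap of at least 2-fold. In the other sets of genes set apart, the X share ran from 12.3%, high in European males, to 28.6%, low in African males. Desat2 belongs to a list of 8 genes of oenocytes, the cells that make cuticular hydrocarbons. The level of this list was 8.28 and 6.17 RPKM in African females and 1.86 to 5.83 RPKM elsewhere, and its part in the value of Desat2 was not tested.

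**Figure D5:**
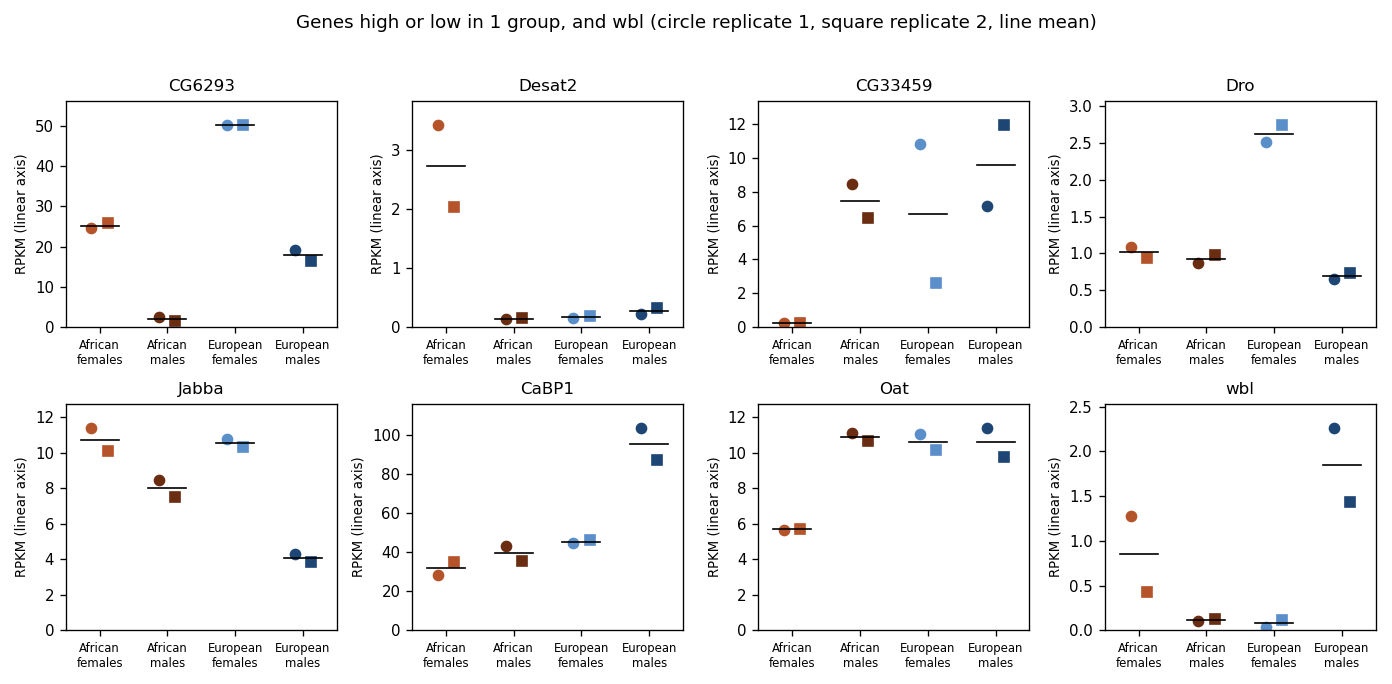
RPKM of 7 genes set apart in a single group and of wbl, by group (horizontal axis) on linear vertical axes from 0, with circles for replicate 1, squares for replicate 2 and lines for means. In 7 panels both libraries of 1 group lie outside the other 6, as for CG6293 in African males and Desat2 in African females, while wbl is high in African females and European males.

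Genes high in European females included stress and immune genes. TotC, a secreted stress-induced protein of the Turandot family, had 15.7 and 2.44 RPKM in European females and 0.0707 to 1.46 RPKM elsewhere, a gap of 6.7-fold. TotA had 22.6 and 7.58 RPKM against 0.713 to 3.71 RPKM, a gap of 4.0-fold. Both were higher in the first European female library, which also had the highest level of accessory gland genes among females. Of 5 Turandot genes tested, 3 had a larger male excess in Africa and 1 in Europe at an unadjusted p under 0.05 (3.39% and 4.21% of all genes), and 0 were called. Dro, the antimicrobial peptide drosocin, had 2.51 and 2.74 RPKM in European females against 0.659 to 1.08 RPKM (gap 2.3-fold, interaction −1.68, adjusted p = 0.203). CG6933 had 6.63 and 7.86 RPKM against 0.496 to 1.86 RPKM, a gap of 4.0-fold.

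Genes low in European females included some of phototransduction and odorant binding. The visual arrestin gene Arr2 had 0.0331 and 0.143 RPKM in European females and 0.514 to 2.05 RPKM elsewhere. The rhodopsin gene ninaE had 0.258 and 0.511 RPKM against 1.03 to 4.34 RPKM, and Arr1 had 0.0928 and 0.134 RPKM against 0.315 to 1.33 RPKM. The gaps were 3.6-, 3.6- and 2.5-fold. Among 28 phototransduction genes these 3 were set apart low in European females, against 0.461% of all genes. The list had a level of 0.435 and 0.558 RPKM there and 0.651 to 1.01 RPKM in the other libraries. Its summed RPKM was low in Europe in both sexes. The sum was 130 and 125 in European females, 138 and 139 in European males and 219 to 314 in the African libraries. The odorant-binding protein gene Obp49a had group means of 2.88, 2.32, 0.566 and 1.9 RPKM in African females, African males, European females and European males. CG16957 was at 0 in both European female libraries and had 0.312 to 0.75 RPKM in the others.

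The study named 12 genes whose sex bias was opposite between the populations, or whose population bias was opposite between the sexes. It found them by separate tests within each population or sex, which is another criterion than the interaction test used here. Many more genes were reported there as biased in a single population or sex only. The 12 were chosen on these same samples, so that their direction here is no independent evidence. For CG31643 the study reported male bias in Africa and female bias in Europe. Its male minus female difference here ran the other way, −0.30 in Africa and 0.40 in Europe. None of the 12 was called at 5% in the interaction test, with adjusted p of 0.155 to 0.341 (limma). All 12 had an unadjusted p under 0.05, 7 with a larger male excess in Europe and 5 in Africa. The sign of the sex difference was opposite between the populations in 7 of 12, and the sign of the population difference was opposite between the sexes in 10. Besides wbl, the lysosomal sulfamidase gene Sgsh had 1.06 and 1.32 RPKM in African females, 0.891 and 0.882 RPKM in African males, 0.684 and 0.611 RPKM in European females and 1.75 and 1.95 RPKM in European males (interaction 1.73). Dred was high in African males, with 7.22 and 6.38 RPKM against 0.612 to 3.3 RPKM (interaction −3.63). It was set apart there with a gap of 3.4-fold.

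The other conflicting-bias genes differed by less. Btnd, for a biotinidase, was far higher in females, with 61.8 and 63.4 RPKM in African and 57.3 and 51.6 RPKM in European females, against 3.91 and 4.22 RPKM in African and 8.07 and 6.62 RPKM in European males. Females exceeded males in both populations. The female level was the higher in Africa and the male level the higher in Europe, and the interaction was 1.01. The phosphoserine phosphatase gene aay had 68.9 and 68.5 RPKM in African females, 120 and 135 RPKM in African males, 84.5 and 83.1 RPKM in European females and 93.3 and 108 RPKM in European males (interaction −0.66). The gene fat-spondin, for a secreted protein made in fat body, had 3.38 and 2.71 RPKM, 6.12 and 5.25 RPKM, 4.63 and 4.41 RPKM, and 4.27 and 4.31 RPKM in the same order (interaction −0.99). The chitin deacetylase gene Cda5 was highest in African females, at 2.59 and 2.99 RPKM, and had 1.27 to 1.98 RPKM in the rest (interaction 0.93). CG14868 had 4.54 and 5.83 RPKM in African females, 2.5 and 1.86 RPKM in African males, 3.14 and 3.2 RPKM in European females and 4.39 and 3.68 RPKM in European males (interaction 1.52). Marf1 and CG31643 were higher in Europe in both sexes and most of all in European males, with interactions of 0.96 and 0.70, and CG13800 had the smallest interaction of the 12, −0.50.

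Genes that mark the tubule's own cells and pump had median interactions near that of all genes. These were 0.00, 0.01 and −0.01 for 12 principal cell, 8 stellate cell and 30 V-ATPase genes, beside −0.01 for all genes. Among these markers 0 had an unadjusted p under 0.05 for the interaction, against 7.6% of all genes. With 2 libraries per group, a p-value above 0.05 does not show that an interaction was absent. By the rule for a single group, 2 V-ATPase genes were high in African females (0.517% of all genes). A further 3, named above, were low in European males (0.501% of all genes). Vha44 had 367 and 346 RPKM in African females against 267 to 322 RPKM, a gap of 1.2-fold that held under all scalings tried, whereas VhaAC45 was not set apart without the composition scaling. Uro, for urate oxidase of the principal cells, had group means that fell from Africa to Europe in both sexes, with population differences of −0.98 in females (adjusted p = 0.0087) and −0.63 in males (adjusted p = 0.027), and an interaction of 0.35 (adjusted p = 0.685). In all, 11 of 35 lists, with 157 members, had no member at an unadjusted p under 0.05, which 7.6% of all genes reached. Among them were the circadian clock, glycolysis, muscle and hemocyte lists. The clock gene tim had 109 and 87.8 RPKM in African females, 77.6 and 61.8 RPKM in African males, 17 and 59.4 RPKM in European females and 108 and 16.8 RPKM in European males. Its libraries differed so much within Europe that the interaction was 0.89 ± 1.28. An interaction of the size seen for sel was not detectable in this gene.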

How the data were processed

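Tubule polyA RNA was sequenced in single reads of 50 bases, with 2 biological replicates in each of the 4 groups. The authors used NextGenMap and the transcripts of FlyBase 5.54, gave each gene the reads of all its isoforms, and ran DESeq2 on the counts. The deposited values are RPKM over the longest transcript, with no factor for library composition. They are whole numbers of reads (100% of values, tolerance 0.05). Names were matched for 13585 genes by gene ID, for 261 by CG number and for 96 not at all. Chromosome arms are those of the files. No coordinates are given, because the reference at hand is of another build.

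The minimum was 12 reads over 8 libraries. Each library's RPKM were scaled by its TMM factor, which lay between 0.927 and 1.04 (log ratios trimmed by 30%, levels by 5%). The fit was that of limma 3.58.1 (R 4.3.3, intensity trend) on log2(RPKM + 0.1) as 4 group means, with Benjamini-Hochberg adjustment at 5% over all genes. Printed RPKM of genes are as deposited. Levels of lists are geometric means of scaled RPKM. All simple contrasts share libraries and are not separate evidence. The fits were tested on simulated data. The genes named were those called, the 5 with the smallest p in each direction, the 5 with the largest gap for each group and direction, up to 4 per list and the study's conflicting-bias genes. Members, lists and rules were chosen with earlier results of these data known.

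The labels number the replicates 1 and 2 but do not say what a number shares. Over 9785 genes with at least 100 reads, the differences between replicates correlated between every 2 groups, from 0.137 (European females and males) to 0.468 (African females and males). The second library was also the deeper one in each group, so that shared handling and depth cannot be told apart. The numbers were read as pairs, and the blocked fit is given where it changed a call.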

Additional observations from a re-analysis of the deposited data

Results flagged for a closer look

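The sex difference differed between the populations, by the test of the difference itself, for 7 genes. On the log2 scale the interaction was −4.43 for Cyp303a1, −4.34 for pnr, −6.11 for Amy-d, −5.97 for Amy-p and −3.65 for CG18180, where the male excess was larger in Africa. It was 1.09 for sel and 0.84 for CG15742, where the male excess was larger in Europe. No group was large enough for a search for single outlying libraries.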

How the results depend on the processing

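The interactions of the named genes compared kept their sign under all 17 alternatives, and 623 of 696 values kept their side of the threshold. Counts of genes moved more, with 143 of 221 within 1.5 times. The majority of high or low genes turned for African males with deposited RPKM (137 high, 201 low) and for European females with median-of-ratios factors (50 high, 69 low). The counts with a larger male excess in Europe and in Africa, 2 and 5, became 0 and 2 with deposited RPKM, 0 and 1 with voom, and 1 and 2 with robust moderation, and with voom Cyp303a1 alone was called. With the replicate block they became 0 and 7, and sel and CG15742 lost their call while CG10472 and CG8834 gained one. The block changed no other interaction call, and it moved the midgut count from 13 to 18. The genes set apart in European males numbered 585 with 1 RPKM added and 182 with at least 100 reads, where the European sex difference was called in 457 genes. With voom 3 testis genes passed in place of 12. Without 1 library in turn, the calls ranged from 0 to 1 for Europe and from 0 to 8 for Africa, with CG10477 and CG6293 called without either African male library and Ag5r2 and Jon99Ci without the first European male library. Genes set apart then ranged from 22 to 217 in African females, 129 to 270 in African males, 9 to 124 in European females and 19 to 604 in European males. The sex difference ranged from 72 to 588 genes in Africa and 15 to 969 in Europe, and the population difference from 106 to 602 in females and 182 to 804 in males. List counts ranged from 11 to 21 for the midgut, 3 to 21 for the testis and 3 to 5 for endoplasmic reticulum folding. A fit without a library rests on 1 sample in that group, assumed to vary like the others. The cause of these changes was not tested.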

Other observations

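A few lists had values that belong to no comparison above. Acp54A1, an accessory gland gene, had 20.5 and 22.8 RPKM in African males, 4.92 and 7.04 RPKM in European males and 0 to 0.35 RPKM in females. Its interaction of −2.83 had an adjusted p of 0.543 (limma). The diptericin gene DptA, whose peptide kills bacteria, had 946 RPKM in the first African female library, 65.5 RPKM in the second and 11.3 to 71.6 RPKM in the other 6, with an interaction of 4.44 ± 1.67 (adjusted p = 0.607). The heat shock gene Hsp70Aa, whose near-identical copies share reads, had 39.7, 23.8 and 32.9 RPKM in the first library of African males, European females and European males. It had 6.95, 3.18 and 6.49 RPKM in the second, and 1.37 and 2.11 RPKM in African females.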
